A study of Mus musculus with 6 samples.

Results

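The SR proteins (serine and arginine-rich splicing factors) are a family of RNA-binding proteins that choose which exons are spliced into an mRNA. The 10 SR genes described here are *Srsf1*, *Srsf2*, *Srsf3*, *Srsf4*, *Srsf5*, *Srsf6*, *Srsf7*, *Srsf9*, *Srsf10* and *Srsf11*. They were chosen by name, as SR genes known for regulation through poison exons, but with earlier results of these data known. Each of the 10 was found once among the 24421 genes of the count table. All 10 passed the filter on low counts and were tested with the other genes, 15584 in all. *Srsf12*, which was not among the 10, is described with the related proteins.

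Bulk RNA-seq was carried out on mouse heads at embryonic day 9.0, in 3 wild-type (WT) and 3 heterozygous mutant libraries. Each library came from 2 heads of 1 genotype, pooled from embryos at a similar somite stage. The labels give the WT genotype as SnrpB +/+ and the mutant genotype as SnrpB+/-, with no treatment in either group. Both CD1 and C57BL/6 appear in the labels of every library. *Snrpb* encodes SmB, a core protein of the small nuclear ribonucleoproteins that make up the spliceosome. In the study, the mutants (*Snrpb* ncc+/-) carried 1 floxed allele that lost exons 2 and 3 under Wnt1-Cre2, a Cre transgene active in the neural tube and the neural crest. The other cells of a mutant head therefore kept both alleles, and each library mixed recombined and unrecombined cells. The labels do not say whether the WT embryos carried the transgene. In whole heads, fewer cells of a type and less RNA per cell cannot be told apart.

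An SR protein binds short enhancer sequences in an exon through RNA recognition motifs (RRMs) and recruits the spliceosome through a tail of arginine-serine repeats. SR genes control their own dose. Most can splice in a poison exon, a conserved stretch that carries an in-frame stop codon ahead of the normal one. Transcripts with this early stop are broken down by nonsense-mediated decay (NMD). When an SR protein is plentiful it commonly promotes its own poison exon, and the amount of productive mRNA falls.

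The mouse annotation (Gencode M21, genome build mm10) was searched for transcripts of these genes that carry the NMD label. It held 85 transcripts of the 10 genes, of which 15 were annotated for decay. These 15 belonged to 9 genes, and *Srsf10* had 0. The counts analysed here were summed over each gene, so they pool productive and decay transcripts and do not measure how often a poison exon was included. The sequences below run from the first base of a decay exon, or of an exon extension in *Srsf5*, to the premature stop, and are shown because this kind of element is what the 10 genes are known for. They were read from the Gencode M21 transcripts, 5′ to 3′ on the strand of the gene. Capitals mark the premature stop codon.

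Srsf3-201 (chr17:29039454-29039487, plus strand): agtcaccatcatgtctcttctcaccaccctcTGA
Srsf7-203 (chr17:80205054-80205081, minus strand): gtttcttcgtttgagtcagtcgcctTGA
Srsf11-206 (chr3:158024209-158024231, minus strand): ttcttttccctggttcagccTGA
Srsf11-212 (chr3:158023310-158023359, minus strand): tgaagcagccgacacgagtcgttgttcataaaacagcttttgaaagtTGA
Srsf5-208 (chr12:80947116-80947130, plus strand): ggcttctctgtaTAG
Srsf4-203 (chr4:131884276-131884390, plus strand): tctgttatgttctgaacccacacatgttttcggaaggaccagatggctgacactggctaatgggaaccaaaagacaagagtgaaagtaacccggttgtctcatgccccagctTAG
Srsf6-201 (chr2:162932815-162932966, plus strand): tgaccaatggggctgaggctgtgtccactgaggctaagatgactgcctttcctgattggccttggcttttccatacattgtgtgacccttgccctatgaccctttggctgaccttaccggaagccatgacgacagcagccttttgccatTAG
Srsf9-205 (chr5:115328347-115328428, plus strand): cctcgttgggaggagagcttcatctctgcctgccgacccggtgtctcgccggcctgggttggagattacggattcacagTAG

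In *Srsf3* the poison exon was a whole exon of 456 bases, absent from the full-length transcript, and its stop ended at base 34. *Srsf7* had a whole exon of 460 bases with a stop ending at base 28. The exon of *Srsf11* was shorter, at 109 bases, with the stop ending at base 23. A second decay transcript of *Srsf11* used another exon of 117 bases, with a stop ending at base 50. The stop ended at base 82 of a 358-base exon in *Srsf9*, at base 115 of 207 in *Srsf4* and at base 152 of 268 in *Srsf6*. Another *Srsf4* decay transcript used a shorter form of the same exon, of 188 bases, that ends at the same base and holds the same stop.

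The decay element of *Srsf5* was not a separate exon. A coding exon was extended upstream by 195 bases, and the stop ended at base 15 of the extension. *Srsf2* differed again, because both of its decay transcripts ended at the stop codon of a coding transcript and were marked by splice junctions downstream of it. One had 3 junctions after the stop and the other had 2. The 2 decay transcripts of *Srsf1* lay wholly within exons of the full-length transcript. They spliced inside its long last exon, reached a different TAA stop, and had 1 junction after it. Bases found in decay transcripts but outside the full-length transcript made up between 0% of the annotated exon bases in *Srsf1* and 27.1% in *Srsf9*. *Srsf10*, with no annotated decay transcript, also had 0%.

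**Figure D1:**
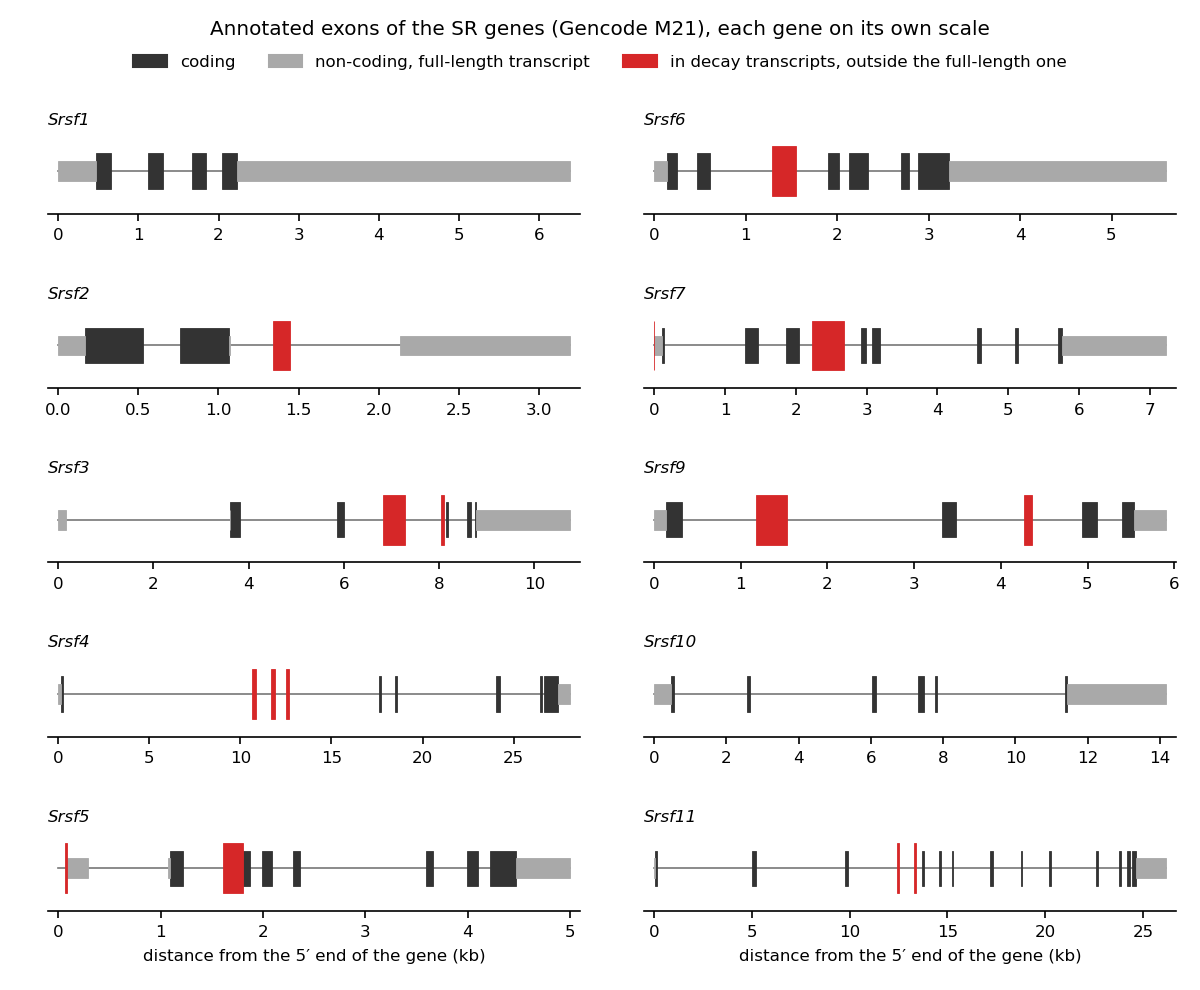
Annotated exons of the 10 SR genes, drawn from the 5′ end of each gene (x axis, distance in kb, each gene on its own scale). Dark blocks are coding bases and light grey blocks are non-coding bases of the full-length transcript, and red blocks are bases of decay transcripts outside it. *Srsf1* and *Srsf10* show no red block.

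The genes lie on 7 chromosomes (mm10). *Srsf1* (chr11:88047373-88053755, plus strand) and *Srsf2* (chr11:116849901-116853094, minus strand) are both on chromosome 11. *Srsf3* (chr17:29032628-29043373, plus strand) and *Srsf7* (chr17:80200080-80207307, minus strand) are on chromosome 17. *Srsf4* (chr4:131873617-131901706, plus strand) and *Srsf10* (chr4:135855747-135869908, plus strand) are on chromosome 4. The others are *Srsf5* (chr12:80945504-80950507, plus strand), *Srsf6* (chr2:162931528-162937121, plus strand), *Srsf9* (chr5:115327177-115333080, plus strand) and *Srsf11* (chr3:158010473-158036639, minus strand). *Srsf2* overlaps 2 genes on the opposite strand, *Mettl23* and *Mfsd11*, and *Srsf1*, *Srsf4* and *Srsf11* also overlap other annotated genes. The strand setting of the counting was not given in the sources used here, so reads of overlapping genes may not be separated.

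The libraries held between 36378803 and 58946111 assigned counts in WT and between 42398206 and 74909774 in mutants. Every SR gene was well covered, from 901 counts for *Srsf4* in its lowest library to 90968 for *Srsf1* in its highest. *Snrpb*, the targeted gene, was read at 429.9, 438.2 and 414.2 CPM (counts scaled to a common library size, corrected by edgeR's TMM factors) in WT and at 436.5, 412.4 and 430.3 CPM in mutants. The groups overlapped, with a log2 fold change of -0.0036 (95% interval -0.09 to 0.09), so its gene-level count did not separate the groups and gives no check of the labels. Marker lists for the cell types of the head, and for heart and yolk sac, had 0 genes called, and 0 at an unadjusted p under 0.05 by edgeR. The summed neural tube level lay wholly lower in mutants, at 569.5 to 578.8 CPM against 582.4 to 700.2 CPM in WT, a narrow gap. Log2 fold changes were above 0 for 1 of its 6 genes, against 50.2% of all tested genes. Other lists also leaned to 1 side. Above 0 were 1 of 6 cranial mesoderm, 1 of 4 endothelium, 0 of 5 primitive erythroid and 0 of 4 tested yolk sac genes. So were 5 of 6 neural crest, 4 of 4 surface ectoderm and 5 of 5 heart muscle genes. The summed heart muscle level ran from 4.81 to 38.3 CPM in WT and from 17.9 to 62.8 CPM in mutants. The part of these differences in the SR values was not tested. WT replicate 1 stood apart in several lists. It had a summed visceral endoderm and yolk sac level of 25.05 CPM against 4.57 to 6.01 CPM in the other 5 libraries. Its surface ectoderm sum was 265.9 CPM against 363.3 to 372.0 CPM, and its primitive erythroid sum was 1472 CPM against 863.3 to 1193 CPM. Summed Y-linked expression ran from 62.8 to 120.0 CPM in WT and from 111.0 to 228.3 CPM in mutants, and Y-linked genes are read from male embryos alone. Values without WT replicate 1, or with the Y-linked level as a covariate, are given beside an SR gene where they moved its log2 fold change by more than 1.5 times.

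All 10 SR genes were expressed in the WT heads. Together they took 0.443% to 0.470% of all counts in WT and 0.469% to 0.474% in mutants. Summed over the 10, WT replicates 1 to 3 held 4431, 4721 and 4682 CPM, and mutant replicates 1 to 3 held 4756, 4674 and 4692 CPM. The groups overlapped. WT replicate 1 had the lowest sum and the lowest level of 6 of the 10 genes.

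To compare genes with each other, levels were divided by exon length, using the union of all annotated exons. *Srsf2* and *Srsf1* stood highest in WT, at 233.2 ± 8.12 and 211.5 ± 9.49 CPM per kb (SD, n = 3). Both are classical SR proteins that act in constitutive and alternative splicing. *Srsf7* (134.1 ± 3.24), *Srsf6* (106.2 ± 3.84) and *Srsf3* (95.6 ± 3.20) followed. *Srsf9* at 67.2 ± 2.18 and *Srsf5* at 65.2 ± 1.72 CPM per kb did not differ beyond their spread, with WT libraries that overlapped. *Srsf10*, a splicing repressor when dephosphorylated, had 49.7 ± 2.54 and *Srsf11* had 27.0 ± 1.04. *Srsf4* was lowest at 7.16 ± 0.31 CPM per kb. The WT ranges of the other neighbours in this order did not overlap.

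This order depended in part on the length used. With exons of protein-coding transcripts alone, a choice made after the data were seen, *Srsf3* went from the fifth to the second place, at 288.5 ± 9.66 CPM per kb. *Srsf5* moved from the seventh to the fifth place, at 157.0 ± 4.14 CPM per kb. *Srsf6*, at 138.3 CPM per kb, fell below *Srsf3* and *Srsf5*. The order of *Srsf10* and *Srsf11* reversed, at 59.5 and 68.5 CPM per kb. *Srsf2* (344.3 CPM per kb) kept the first place and *Srsf4* (11.3 CPM per kb) the last.

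**Figure D2:**
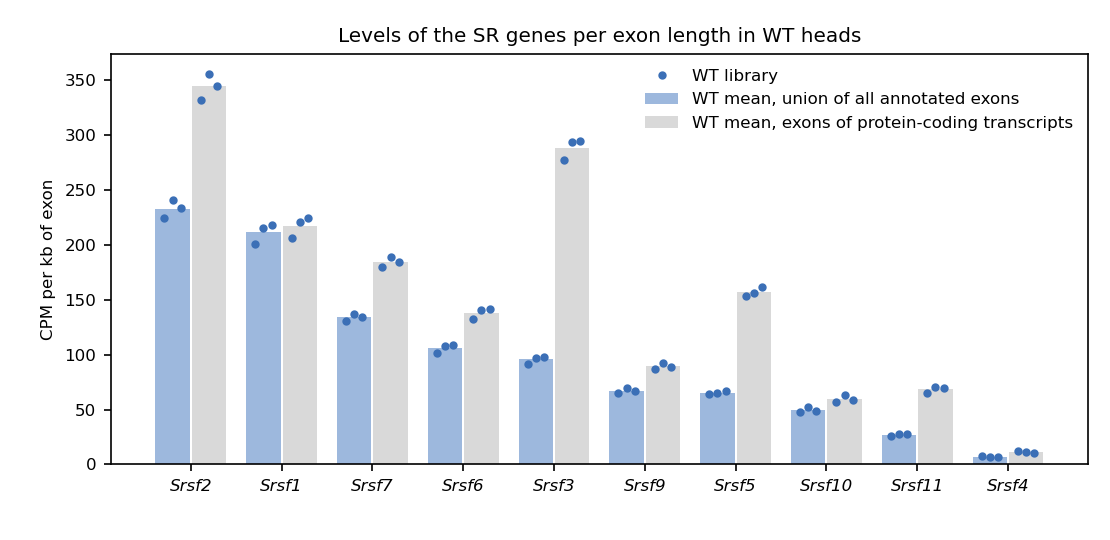
Level of each SR gene in WT heads (y axis, CPM per kb of exon). Bars are means of 3 WT libraries and points are the libraries, for the union of all annotated exons (blue) and for exons of protein-coding transcripts (grey). *Srsf4* is lowest by either length, at 7.16 and 11.3 CPM per kb.

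The comparison of mutant with WT heads asked whether the dose of SR mRNAs differed when 1 allele of *Snrpb* was lost from the neural tube and neural crest. By edgeR's quasi-likelihood test, with Benjamini-Hochberg adjustment over all 15584 genes tested, 0 of the 10 SR genes were called at an adjusted p under 0.05. Across the whole table the test called 1 gene, or 0.00642%. At an unadjusted p under 0.05, edgeR passed 2 of the 10, *Srsf5* and *Srsf11*, against 8.43% of all tested genes. Both were higher in mutants, a direction taken by 4.34% of all genes at that p, while 0 of the 10 and 4.09% of all genes passed on the lower side. DESeq2, the tool of the study, called 1 SR gene, *Srsf5*, against 0.651% of the 12908 genes to which it gave an adjusted p, and 0.434% in the higher direction. Log2 fold changes above 0 were found for 8 of the 10 by edgeR and for 6 by DESeq2, against 50.2% of all genes by edgeR. The DESeq2 share of all genes is not given here. The tools differed in *Srsf1* and *Srsf10*, with values near 0 by edgeR (0.001 and 0.003) and by DESeq2 (-0.0031 and -0.0011). The median of the 10 was 0.06, beside 0.0004 for all tested genes. Without WT replicate 1 it was 0.03.

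*Srsf5* stood out among the 10. It has a pair of RRMs. WT replicates 1 to 3 held 254.0, 258.4 and 267.5 CPM of *Srsf5*, and mutant replicates 1 to 3 held 296.5, 307.7 and 303.8 CPM. Every mutant library lay above every WT library, and the gap between the groups was larger than the range within either. WT averaged 260.0 ± 6.86 CPM and the mutants averaged 302.7 ± 5.67 CPM (SD, n = 3). The fitted level was 16.4% higher in mutants, with a 95% interval of 9.80% to 23.5%. The log2 fold change was 0.22 with a standard error of 0.037, and edgeR gave an unadjusted p of 0.000243 and an adjusted p of 0.235. Only 14 of the 15584 genes had a smaller edgeR p. With DESeq2 the log2 fold change was again 0.22, with an adjusted p of 0.00201, so the call depended on the test used. Without WT replicate 1 it was 0.20, and with the Y-linked level as a covariate it was 0.24, with adjusted edgeR p-values of 0.231 and 0.999. With that covariate all 10 SR genes had an adjusted p of 0.999. For *Srsf5* the unadjusted edgeR p was then 0.00375 and the standard error 0.060. The Y-linked level was mostly higher in mutants, so this fit cannot fully separate it from genotype. The gene counts do not show how much of either level came from transcripts with the upstream extension, whose first bases are printed above.

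*Srsf4* and *Srsf6* share the paired RRM layout with *Srsf5*. *Srsf6* was read at 489.4, 521.0 and 521.6 CPM in WT and at 549.3, 529.7 and 542.8 CPM in mutants. Its mutant libraries were all above its WT libraries. The log2 fold change was 0.08 (95% interval -0.01 to 0.17), with an edgeR adjusted p of 0.619, and it was 0.05 without WT replicate 1. *Srsf4*, the gene of lowest level, had 26.6, 25.5 and 24.4 CPM in WT and 26.1, 27.8 and 26.6 CPM in mutants. These groups overlapped, and the log2 fold change was 0.08 with a wider interval of -0.05 to 0.20. With the Y-linked covariate it was 0.02. It was 0.04 without WT replicate 3 and 0.05 without mutant replicate 2.

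*Srsf1* and *Srsf9*, which also carry a pair of RRMs, gave small differences. *Srsf1* had 1146, 1230 and 1247 CPM in WT and 1229, 1197 and 1200 CPM in mutants. WT replicate 1 was the lowest library, and the other 2 WT libraries were the highest. The log2 fold change was 0.001 (95% interval -0.09 to 0.09, edgeR adjusted p = 0.997). Its sign turned with DESeq2's size factors (-0.0031), without mutant replicate 1 (-0.01) and without WT replicate 1 (-0.04), and stayed above 0 with library size alone (0.01) and with the Y-linked covariate (0.02). *Srsf9* had 108.2, 115.2 and 110.0 CPM in WT and 114.7, 113.1 and 117.8 CPM in mutants, with overlapping groups and a log2 fold change of 0.05 (95% interval -0.04 to 0.14). Without WT replicate 1 the *Srsf9* value was 0.03, without WT replicate 2 it was 0.08 and without mutant replicate 3 it was 0.03.

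*Srsf3* and *Srsf7* each have a lone RRM and take part in mRNA export as well as splicing. *Srsf3*, whose poison exon is printed above as far as its stop, had 726.2, 768.9 and 771.0 CPM in WT and 776.2, 795.5 and 798.6 CPM in mutants. The mutant libraries were above the WT libraries, although the lowest mutant and highest WT libraries lay close together. The log2 fold change was 0.06 (95% interval -0.02 to 0.15, edgeR adjusted p = 0.675), and it was 0.03 without WT replicate 1. *Srsf7* had 465.0, 487.9 and 475.6 CPM in WT and 486.2, 459.3 and 464.6 CPM in mutants. The groups overlapped, with a log2 fold change of -0.02 (95% interval -0.11 to 0.07). It was -0.04 without WT replicate 1 or without mutant replicate 1, -0.00042 without WT replicate 2 and -0.0035 without mutant replicate 2.

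*Srsf2*, a mostly nuclear SR protein, was the gene with the lowest log2 fold change of the 10, at -0.06 (95% interval -0.16 to 0.03, edgeR adjusted p = 0.694). It was read at 665.3, 713.4 and 690.4 CPM in WT and at 676.6, 638.0 and 665.0 CPM in mutants. The groups overlapped through WT replicate 1 and mutant replicate 1. Without WT replicate 1 the log2 fold change was -0.09, and edgeR gave an unadjusted p of 0.0475 and an adjusted p of 0.494. It was -0.04 without WT replicate 2 and also without mutant replicate 2.

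*Srsf11*, an SR-related protein that binds other splicing factors, had 217.8, 233.7 and 232.3 CPM in WT and 249.1, 243.8 and 240.9 CPM in mutants. Its mutant libraries all exceeded its WT libraries. The log2 fold change was 0.10 (95% interval 0.01 to 0.19), with an unadjusted edgeR p of 0.0339 and an adjusted p of 0.543. Without WT replicate 1 it was 0.07, with an unadjusted edgeR p of 0.107. *Srsf10* had 333.1, 367.5 and 342.7 CPM in WT and 352.1, 362.0 and 331.7 CPM in mutants. The groups overlapped, the log2 fold change was 0.003 (95% interval -0.11 to 0.12), and its sign turned under several alternatives, among them leaving out WT replicate 1 (-0.03) and the Y-linked covariate (-0.08). Without WT replicate 2 it was 0.05.

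**Figure D3:**
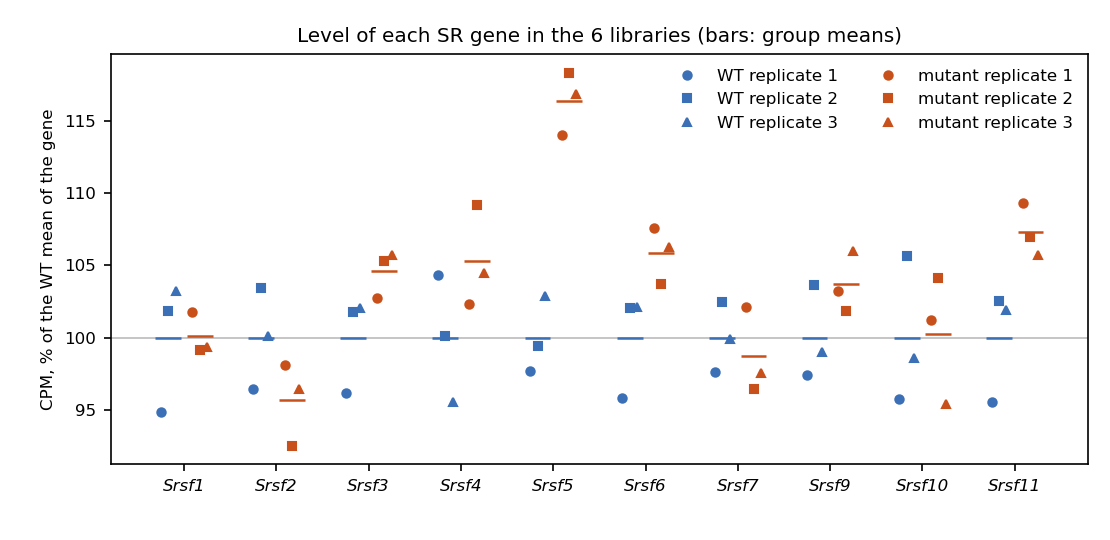
Level of each SR gene in the 6 libraries (y axis, CPM as a percent of the gene's own WT mean). Points are libraries, circles, squares and triangles stand for replicates 1, 2 and 3, and short bars are group means of 3. The *Srsf5* mutant libraries sit between 114.1% and 118.4% of the WT mean, above all WT libraries, while the points of 6 of the 10 genes overlap between groups.

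In 4 of the 10 genes (*Srsf3*, *Srsf5*, *Srsf6* and *Srsf11*) every mutant library lay above every WT library, and in 0 every mutant library lay below. Over all tested genes, 8.32% had mutants wholly above WT and 6.92% wholly below. The same 4 genes separated with library size alone and with DESeq2's size factors. Without WT replicate 1 the same 4 and *Srsf4* had mutants above WT, against 14.9% of all genes, and *Srsf1* and *Srsf2* had mutants below WT, against 13.5%. The 95% interval of *Srsf5* ran from 9.80% to 23.5%. Those of the other 9 genes reached at most 15.2%, the upper bound for *Srsf4*, so some of them overlapped the *Srsf5* interval. For *Srsf1* the interval ran from -6.06% to 6.62%, for *Srsf7* from -7.07% to 4.84% and for *Srsf10* from -7.28% to 8.35%.

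**Figure D4:**
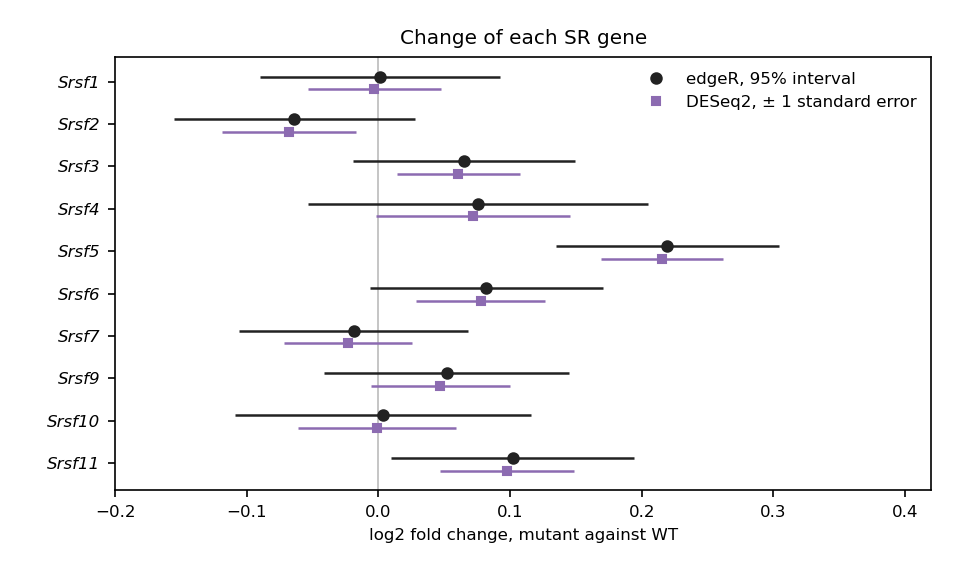
Log2 fold change of each SR gene, mutant against WT (x axis). Black circles are edgeR estimates with 95% intervals and purple squares are DESeq2 estimates with 1 standard error to each side. The edgeR intervals of *Srsf5* (0.13 to 0.30) and *Srsf11* (0.01 to 0.19) lie above 0, and the other 8 include it.

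The SR genes varied less between libraries than the median tested gene, which set how small a difference could be seen. Their median coefficient of variation was 3.55% in WT and 1.96% in mutants, against 7.55% and 5.65% for all tested genes. The median standard error of their log2 fold changes was 0.040, against 0.087 for all tested genes. Tested genes included some of far lower count than the SR genes, and these comparisons were not matched for level. *Srsf10* was the most variable of the 10 in both groups, at 5.11% in WT and 4.44% in mutants.

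The makeup of the SR pool was then examined by taking each gene as a share of the summed counts of the 10, an alternative added after the data were seen. *Srsf5* took 5.73%, 5.47% and 5.71% of SR counts in WT and 6.24%, 6.58% and 6.48% in mutants. *Srsf6* (11.07% in WT and 11.48% in mutants) and *Srsf11* (4.94% and 5.20%) also had shares in mutants that all exceeded those in WT. Shares must sum to the whole, so others were lower. For *Srsf2* the mean share was 14.96% in WT and 14.02% in mutants, and for *Srsf1* it was 26.18% and 25.67%. In both, every mutant library was below every WT library. The shares of *Srsf3* and the other 4 genes overlapped between groups, so the separation of *Srsf3* was not kept on this scale.

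Related genes were taken from lists of proteins that act with the SR family. Of 36 other SR and SR-related proteins tested, edgeR called 0 at an adjusted p under 0.05. It passed 4 higher and 1 lower at an unadjusted p under 0.05, against 4.34% and 4.09% of all tested genes, and DESeq2 called 1, against 0.651%. The median log2 fold change was 0.04, with 25 of 36 above 0 against 50.2% of all genes, and it was 0.01 with the Y-linked level as a covariate. *Rsrp1*, an arginine- and serine-rich protein, was the gene with the highest log2 fold change and the DESeq2 call. It had 51.4, 50.5 and 40.8 CPM in WT and 58.6, 66.9 and 58.2 CPM in mutants, with mutants above WT. Its log2 fold change was 0.36 with a standard error of 0.097, and its adjusted p was 0.433 by edgeR and 0.0438 by DESeq2.

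The others past an unadjusted p of 0.05 by edgeR, named after their values were seen, were *Luc7l3* (log2 fold change 0.24), *Pnisr* (0.17) and *Rbm39* (0.15) on the higher side and *Scaf11* (-0.09) on the lower. *Srrm2*, a scaffold of nuclear speckles, where SR proteins are stored, had the lowest log2 fold change, at -0.21 with a standard error of 0.27. Its WT libraries ranged from 267.4 to 523.4 CPM and enclosed the mutant libraries. *Tra2a* (0.10) and *Tra2b* (-0.08), SR-like proteins that also use poison exons, had overlapping groups. *Srsf12*, the SR gene of low level outside the 10, had 1.81 to 2.27 CPM in WT and 1.93 to 2.26 CPM in mutants, with a log2 fold change of 0.02.

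SR proteins are active when their serine residues are phosphorylated, by SRPK kinases in the cytoplasm and CLK kinases in the nucleus. Among 15 kinases, phosphatases and import receptors of SR proteins, edgeR and DESeq2 each called 0, and edgeR passed 3 higher and 1 lower at an unadjusted p under 0.05, against 4.34% and 4.09% of all tested genes. The median log2 fold change was 0.01. *Clk1* had 69.7, 65.3 and 56.4 CPM in WT and 73.6, 83.5 and 71.6 CPM in mutants. *Clk4* had 32.4, 30.0 and 26.5 CPM in WT and 35.6, 37.3 and 33.0 CPM in mutants. Both had mutants above WT, with log2 fold changes of 0.26 and 0.25 and edgeR adjusted p-values of 0.485 and 0.437. *Clk2* (0.05) and *Clk3* (-0.02) overlapped. The third gene on the higher side, named after its value was seen, was *Prpf4b* (0.13). *Srpk2* had the lowest log2 fold change at -0.15, with 47.7 to 52.9 CPM in WT and 43.1 to 47.1 CPM in mutants. *Srpk3* had the highest at 0.43, at a level near 1 CPM, with an edgeR adjusted p of 0.636.

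Decay of poison-exon transcripts needs the NMD machinery. Of 20 NMD factors, edgeR called 0, with 0 higher and 1 lower at an unadjusted p under 0.05 against 4.34% and 4.09% of all tested genes, and the median log2 fold change was 0.002. DESeq2 called 1 of the 20, against 0.651% of the genes to which it gave an adjusted p. *Nbas*, which acts in NMD and in vesicle transport, was that call and had the lowest log2 fold change. It had 79.2, 70.8 and 76.2 CPM in WT and 57.9, 62.8 and 66.2 CPM in mutants, with mutants below WT. Its log2 fold change was -0.27 with a standard error of 0.063, and its adjusted p was 0.333 by edgeR and 0.0332 by DESeq2. *Eif4a3*, a core protein of the exon junction complex, had the highest log2 fold change of this list at 0.08 (edgeR adjusted p = 0.658).

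Transcripts that NMD normally keeps low, such as the host genes of small nucleolar RNAs, were listed apart. Their levels were read here, and NMD activity was not measured. The table held 12 of 15 such transcripts listed. Of the 12, edgeR called 0 and DESeq2 called 2, both higher in mutants, against 0.434% of all genes. At an unadjusted p under 0.05 edgeR passed 6 of the 12, each on the higher side, against 4.34% of all genes. Named after their values were seen, these 6 were all host genes: *Gas5*, *Snhg1*, *Snhg3*, *Snhg5*, *Snhg8* and *Snhg12*. The host gene *Snhg6* (log2 fold change 0.04) did not pass. Neither did the listed genes that are not such hosts: *Gadd45a* (0.19), *Gadd45b* (0.20), *Atf4* (0.03), *Ddit3* (0.05) and *Atf3* (-0.05). The median log2 fold change was 0.18, with 11 of 12 above 0 against 50.2% of all genes, and it was 0.06 with the Y-linked level as a covariate. *Gas5* had 284.8, 290.1 and 265.6 CPM in WT and 343.3, 370.4 and 334.2 CPM in mutants. For *Gas5* the log2 fold change was 0.32, with adjusted p-values of 0.206 by edgeR and 0.000229 by DESeq2. *Snhg8* had 28.3, 29.7 and 28.7 CPM in WT and 34.9, 34.7 and 33.6 CPM in mutants. Here the log2 fold change was 0.25, with adjusted p-values of 0.291 by edgeR and 0.0381 by DESeq2. Both genes had mutants wholly above WT. *Snhg12* had the highest log2 fold change (0.32) and *Atf3*, a stress-response transcription factor, the lowest (-0.05).

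**Figure D5:**
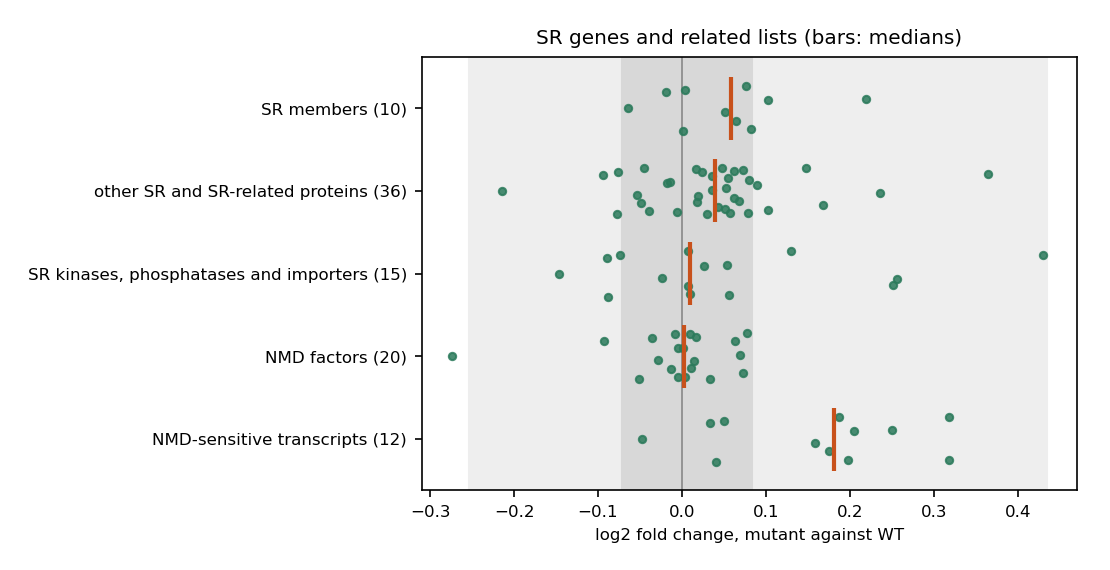
Log2 fold change, mutant against WT (x axis), of the genes in the SR set and the 4 related lists, with the number tested in brackets. Points are genes, orange bars are list medians, the dark band runs from the 25th to the 75th percentile of all tested genes and the light band from the 5th to the 95th. Medians run from 0.002 for NMD factors to 0.18 for NMD-sensitive transcripts.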

How the data were processed

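Total RNA of pooled E9.0 heads was sequenced by the authors from ribosomal RNA-depleted, stranded libraries. Per the labels, the processing tools included Trim Galore, STAR, MultiQC and featureCounts with build mm10; the study's methods name CutAdapt, HTSeq and a Gencode M2 annotation, and the labels list no versions. The authors deposited whole-number read counts per gene, not normalized, for 24421 genes in 6 libraries. WT was compared with mutant by edgeR 4.0.16 (R 4.3.3; TMM scaling, filterByExpr with a minimum of 10 counts, robust quasi-likelihood F-test, two-sided, Benjamini-Hochberg adjustment over all 15584 genes passed). A call was an adjusted p under 0.05. Standard errors were taken from the log2 fold change and the F value. DESeq2 1.42.0 was an alternative, as were other scalings, no filter, a likelihood ratio test, a Y-linked covariate, a replicate block and leaving out each library, 15 settings in all. Both tools were tested on simulated data. Levels are TMM-scaled CPM computed here from the counts. The annotation (Gencode M21, mm10) gave lengths and sequences, and was newer than that of the authors. The full-length transcript of a gene was its longest APPRIS principal transcript.

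Named were the 10 SR genes, *Snrpb*, *Srsf12*, *Clk1* to *Clk4*, *Tra2a* and *Tra2b*, and in each list every gene called by edgeR or DESeq2 and the highest and lowest log2 fold change; others are marked as named after their values were seen. The members and lists were chosen with earlier results of these data known. Libraries, also those of a group, differed by more than counting noise. A chi-square test of 2 libraries' counts gave 10.2 to 28.3 per degree of freedom over all pairs, within and between groups. The p-values measure the spread between pools of 2 heads.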

Additional observations from a re-analysis of the deposited data

How the results depend on the processing

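Over 15 alternative settings, 207 of the values compared were counted as unchanged, by the rules given below. Of the rest, 13 log2 fold changes reversed in sign and 3 passed the threshold only under the alternative. Another 16 values, counts of calls or list medians, moved away from the reported value. The number of genes called over the whole table was 54 with edgeR's likelihood ratio test, 11 with no filter, 0 with the Y-linked covariate, 84 with DESeq2 and 76 with DESeq2's default alpha of 0.1, against 1 as reported. Leaving out 1 library gave 0 to 6 (6 without WT replicate 1 and 5 without mutant replicate 1). The likelihood ratio test and both DESeq2 settings called 1 SR gene, *Srsf5*, with adjusted p-values of 0.0432, 0.00201 and 0.0024, and its log2 fold change was 0.22 in each. Over all settings its adjusted p ran from 0.00201 to 0.999, the latter with the Y-linked covariate, where its unadjusted edgeR p was 0.00375. With each library left out in turn, 0 SR genes were called and the SR median ran from 0.03 to 0.08. The Y-linked covariate moved the median of the other SR-related proteins to 0.011 and that of the NMD-sensitive transcripts to 0.057. With a library left out, *Srsf1* ran from -0.039 to 0.024 and *Srsf10* from -0.031 to 0.045. *Srsf1* turned below 0 with DESeq2's size factors (-0.0031), with DESeq2 at both alphas (-0.0031), without WT replicate 1 (-0.039) and without mutant replicate 1 (-0.011). *Srsf10* did so with size factors (-0.00095), the Y-linked covariate (-0.083), DESeq2 at both alphas (-0.0011) and without WT replicates 1 (-0.031) and 3 (-0.0076) and mutant replicates 1 (-0.0041) and 2 (-0.026). The cause of these changes was not tested. Replicate numbers in the sample titles are shared by the groups, while the column headers number the mutants on from the WT libraries. The main test did not pair samples by replicate number. Same-numbered deviations correlated at 0.030, 0.0014 and 0.18. With 3 libraries a group, these values cannot settle whether the numbers pair the samples. With a replicate block 1 gene was called in all and 0 SR genes, and *Srsf5* had a log2 fold change of 0.22 and an adjusted p of 0.283; not every sample correlated best with its own number. With 3 libraries a group, the main test did not call even the *Srsf5* difference, at several times its standard error, so differences of that size or smaller among the SR genes may go uncalled, and isoforms were not read.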
